A study of Mus musculus with 12 samples.

Results

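The genes described here are 10 members of the NRF2 antioxidant pathway, read in splenic B cells before and after lipopolysaccharide (LPS) and with Ebf1 floxed on both alleles or on 1. They are Nfe2l2, which encodes the transcription factor NRF2, its inhibitor Keap1, and the target genes Slc7a11, Gclc, Gclm, Txnrd1, Srxn1, Prdx1, Nqo1 and Hmox1. A probe was a member when the gene name in the scanner file was one of these symbols. This gave 18 of the 41174 probes on the array, for 10 of 27670 genes. Where a gene had several probes, the brightest stands for it. All 10 genes were among the 17134 that were tested, because each had a probe above background on at least 3 of the 12 arrays.

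All mice were C57BL/6 and carried the RERT-Cre transgene, a Cre recombinase fused to an oestrogen receptor domain and switched on by tamoxifen. The control animals were heterozygotes with 1 floxed Ebf1 allele (+/fl), not wild type, and the others had 2 (fl/fl). Every animal, controls included, received 3 mg of tamoxifen citrate on each of 4 days in a row and was killed on day 10. B cells were sorted from the spleen as B220+AA4.1- or as B220+AA4.1-CD21lo, and which gate was used for which sample is not given. The 4 groups of 3 arrays each were resting fl/fl, resting +/fl, LPS-stimulated fl/fl and LPS-stimulated +/fl cells. Neither the age of the mice nor the dose and time of LPS is stated. The labels speak of triplicates without tying them to separate animals, and p-values therefore describe the scatter among these arrays, some or all of which can be technical.

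NRF2 is kept scarce in unstressed cells because KEAP1 hands it to a ubiquitin ligase built on CUL3. Oxidants and electrophiles modify cysteines of KEAP1, NRF2 then accumulates, pairs with a small MAF protein and binds the antioxidant response element (ARE), where BACH1 can take its place and repress. Its targets supply glutathione and thioredoxin, reduce quinones and break down haem, and much of its control lies in protein stability, which a microarray does not measure.

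The promoters are shown because the members are grouped by a factor that acts through one short DNA motif. RefSeq promoter windows (GRCm38.p6) of 300 bases, from 250 before to 50 after the start of the gene including its first base, were held for 8 of the 10 members in 10 windows, 3 of them for Txnrd1. They were searched on both strands for TGACNNNGC, the ARE core. It was found in 5 members, Nfe2l2, Gclm, Txnrd1, Srxn1 and Prdx1, and the same letters stood in 12.4% of the 32851 windows of this length in the table. The windows of Keap1, Nqo1 and Slc7a11 did not hold these letters, nor did the other windows of Txnrd1. Bases outside the windows and other spellings were not searched, so this does not show that these genes lack an ARE. The stretches below read 5′ to 3′ along the gene's own strand, with the ARE core in capitals. Those of Nfe2l2 (chr2:75704664-75704913, minus strand), Gclm (chr3:122245307-122245556, plus strand), Txnrd1 (chr10:82858956-82859205, plus strand) and Prdx1 (chr4:116685349-116685598, plus strand) are the 250 bases before the start. That of Srxn1 (chr2:152105542-152105571, plus strand) is 30 bases around a core that lies after the start.
Nfe2l2: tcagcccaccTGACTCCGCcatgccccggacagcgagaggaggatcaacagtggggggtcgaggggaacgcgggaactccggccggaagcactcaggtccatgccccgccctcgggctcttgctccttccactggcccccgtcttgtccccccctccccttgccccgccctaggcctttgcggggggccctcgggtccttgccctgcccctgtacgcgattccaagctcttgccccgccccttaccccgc
Gclm: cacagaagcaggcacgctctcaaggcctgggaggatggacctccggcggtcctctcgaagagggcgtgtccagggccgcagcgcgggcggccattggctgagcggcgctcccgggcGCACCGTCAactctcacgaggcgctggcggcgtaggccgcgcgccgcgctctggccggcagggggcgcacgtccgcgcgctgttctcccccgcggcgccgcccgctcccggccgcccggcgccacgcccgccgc
Txnrd1: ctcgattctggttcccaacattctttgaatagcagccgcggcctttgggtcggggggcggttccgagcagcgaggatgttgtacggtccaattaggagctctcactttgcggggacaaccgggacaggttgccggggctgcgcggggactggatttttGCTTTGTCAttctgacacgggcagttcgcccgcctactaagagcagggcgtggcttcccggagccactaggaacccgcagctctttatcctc
Prdx1: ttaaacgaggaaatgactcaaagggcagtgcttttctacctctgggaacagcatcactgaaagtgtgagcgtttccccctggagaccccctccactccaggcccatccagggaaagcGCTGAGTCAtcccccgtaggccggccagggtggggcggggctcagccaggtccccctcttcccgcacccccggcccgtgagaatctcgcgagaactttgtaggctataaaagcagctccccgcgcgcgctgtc
Srxn1: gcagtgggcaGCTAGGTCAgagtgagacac

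Counted from the first base of the gene as 0, the core spans positions -240 to -232 in Nfe2l2, -134 to -126 in Gclm, -92 to -84 in Txnrd1, 28 to 36 in Srxn1 and -133 to -125 in Prdx1. It is on the gene's own strand in Nfe2l2 and on the opposite strand in the other 4. The AP-1 motif TGANTCA had 2 matches in the Srxn1 window and 2 in the Prdx1 window, where 7.81% of all windows held at least 1, and 1 of the Prdx1 matches (-131 to -125) lies inside the ARE core shown. The EBF1 core CCCNNGGG stood in the windows of Nfe2l2 and Gclm and in 13.7% of all windows. These are matches of letters, and binding was not measured.

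The measured oligonucleotides were 60 bases long. Those for Gclm, Prdx1 and Keap1 are shown because the positions in the files (mouse build mm7) span more bases than the probe is long, so each joins stretches that are apart in the genome. The Gclm probe runs over chr3:122027477-122030112, the Prdx1 probe over chr4:116069412-116070182 and the Keap1 probe, on the minus strand, over chr9:21107406-21107846.
Gclm probe: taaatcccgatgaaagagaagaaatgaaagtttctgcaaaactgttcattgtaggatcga
Prdx1 probe: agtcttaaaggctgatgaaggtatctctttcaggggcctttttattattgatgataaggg
Keap1 probe: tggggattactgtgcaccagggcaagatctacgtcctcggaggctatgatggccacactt

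Levels below are log2 signal minus the 75th percentile of the same array, so 0 is the signal that 75% of the spots lie under, and differences are on the same log2 scale. Between 54.4% and 61.4% of spots were well above background on 11 arrays, and 83.2% on LPS fl/fl 2, which stood apart. The 8 defining B cell markers were above background on all 12 arrays, and their summed signal relative to the 75th percentile was 788 to 1030 at rest and 316 to 382 after LPS. Ebf1 itself did not move one way: its RefSeq probe read 1.68 to 1.81 in resting fl/fl and 0.75 to 1.40 in resting +/fl cells, while the probe for cDNA AK036716 read -5.01 to -4.21 and -3.16 to -2.18. Which part of the gene Cre removes is not stated, and the probes therefore do not check the genotype. Differences were tested with limma over all 17134 genes, and a gene is called where the Benjamini-Hochberg adjusted p is below 0.05. Each group enters more than 1 comparison, so the comparisons share arrays and their values are only set side by side.

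The target genes Gclc, Gclm, Txnrd1 and Prdx1 were higher after LPS in both genotypes, while Nfe2l2 itself and Hmox1 fell. In +/fl cells 8 of the 10 members were called, 6 higher and 2 lower, where 57.7% of all genes were called, 30.4% higher and 27.4% lower. In fl/fl cells 9 were called, 7 higher and 2 lower, where 55.6% of all genes were called, 29.9% higher and 25.7% lower. The median difference of the members was 1.32 in +/fl and 1.44 in fl/fl cells, against -0.03 and 0.06 over all genes. Values of the 2 conditions did not overlap for 8 members in +/fl cells, as for 65.7% of all genes, nor for the 9 called in fl/fl cells, where the share was 62.1%. The members not called were Keap1 in both genotypes and Srxn1 in +/fl cells. These counts and medians include Slc7a11, above background on 5 LPS and 0 resting arrays, and Nqo1, on 6 LPS and 2 resting arrays. Both entered the test through the LPS arrays, so their direction was set by the filter. Of the other 8 members, 4 were higher and 2 lower in +/fl cells and 5 higher and 2 lower in fl/fl cells.

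**Figure D1:**
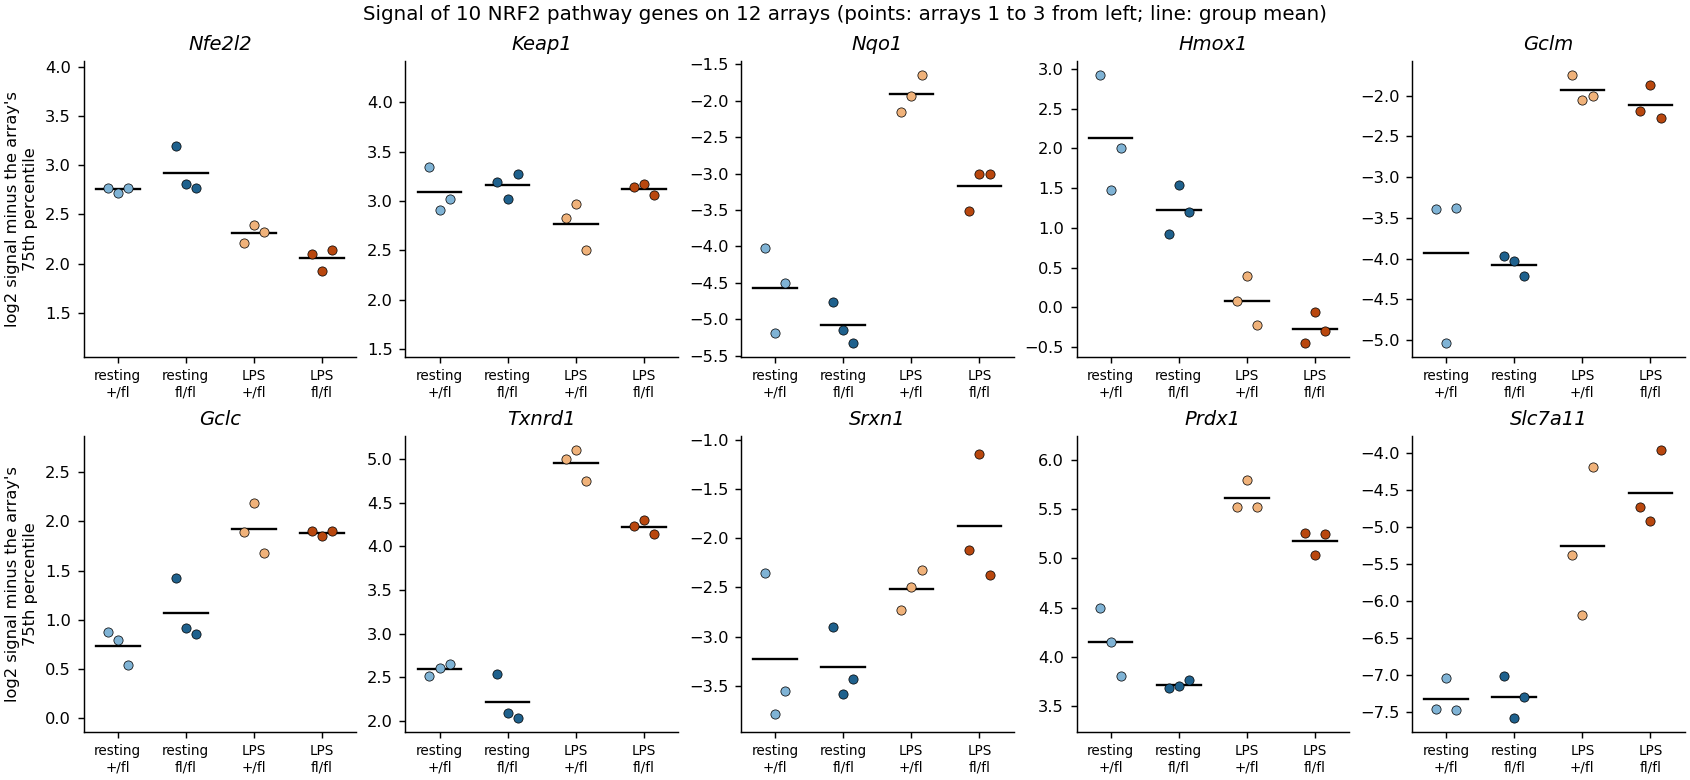
Level of the 10 genes on each of the 12 arrays, with 1 point per array, a line at the group mean, and the vertical axis as log2 signal minus the 75th percentile of the array. All 6 LPS arrays lie above all 6 resting arrays for Nqo1, Gclm, Gclc, Txnrd1, Prdx1 and Slc7a11, and below them for Nfe2l2 and Hmox1.

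Nfe2l2, the gene of the pathway's own transcription factor, fell. At its brightest probe (chr2:75519430-75519489, mm7, minus strand) resting +/fl cells read 2.77, 2.72 and 2.77 and LPS +/fl cells 2.21, 2.39 and 2.32. The fl/fl arrays read 3.19, 2.81 and 2.77 at rest and 2.10, 1.92 and 2.14 after LPS. Every LPS array lay below every resting array, and the lowest were the 3 LPS fl/fl arrays. The difference was -0.45 (SE 0.12, n = 3 and 3, adjusted p 0.0107) in +/fl and -0.87 (SE 0.12, adjusted p 0.000203) in fl/fl cells. Without resting +/fl 1 and 3, the arrays richest in macrophage markers, the +/fl difference was -0.42, with only resting +/fl 2 left. In +/fl cells the call ended without resting +/fl 3 and LPS +/fl 1, whose sample names share a number (-0.39, adjusted p 0.0837). With normexp, a model-based correction of background, it ended in both genotypes (-0.42, adjusted p 0.701 in +/fl and -0.46, adjusted p 0.41 in fl/fl cells), and with that correction repaired for spots of high local background it stood in both (-0.38, adjusted p 0.0184, and -0.75, adjusted p 0.000246).

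Nfe2l2 had 3 further probes, and its group means were lower after LPS at each of them. At the second RefSeq probe the differences were -0.36 (adjusted p 0.0276 over 25678 probes) for +/fl and -0.80 (adjusted p 0.000335) for fl/fl. The probe for cDNA AK029360 differed by -1.09 (adjusted p 0.00367) and -0.85 (adjusted p 0.0152). The probe for cDNA AK031731 passed for fl/fl (-0.56, adjusted p 0.0302) and not for +/fl (-0.35, adjusted p 0.146). The cDNA probes lie at chr2:75535606-75535665 and chr2:75544410-75544469, apart from the RefSeq probes at chr2:75519430-75519489 and chr2:75519576-75519635.

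**Figure D2:**
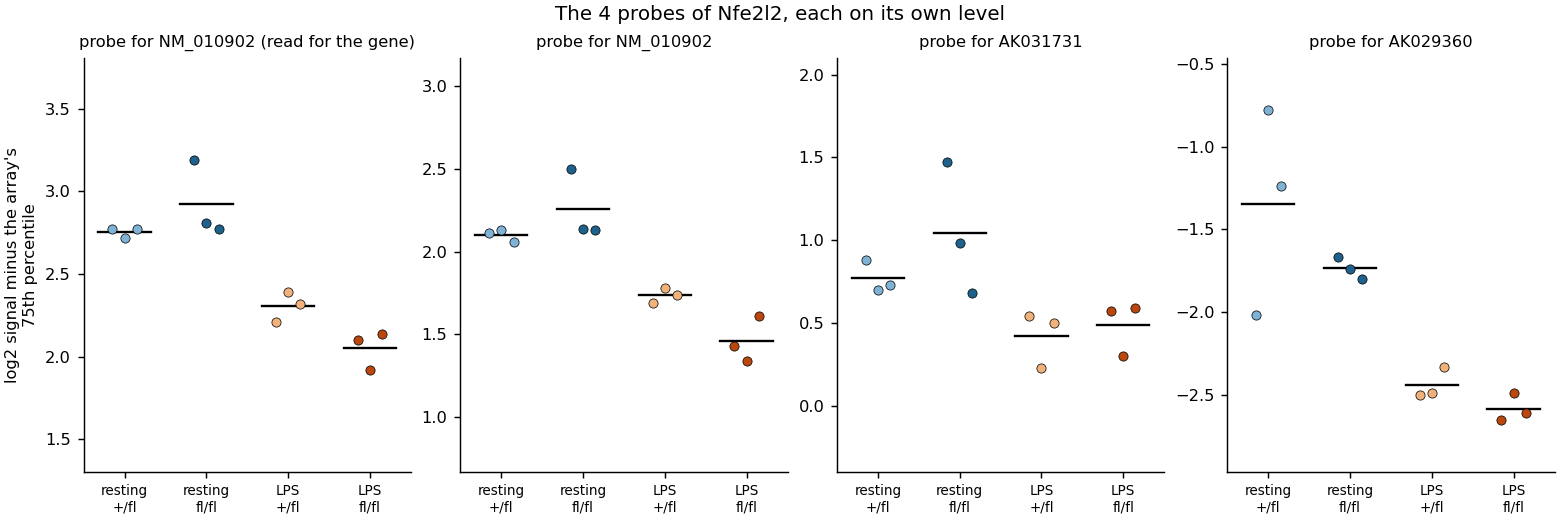
The 4 Nfe2l2 probes on the 12 arrays, in panels of equal height in log2 units, with 1 point per array and a line at the group mean. Group means after LPS are below those at rest in every panel, and the resting +/fl arrays are spread widest at the AK029360 probe, with an SD of 0.63.

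Keap1, the inhibitor, was not called in either genotype. Resting +/fl cells read 3.34, 2.91 and 3.02 and LPS +/fl cells 2.83, 2.97 and 2.5, which overlap (-0.32, SE 0.15, 95% interval -0.66 to 0.01, adjusted p 0.0916). In fl/fl cells it read 3.19, 3.02 and 3.27 at rest and 3.14, 3.17 and 3.06 after LPS (-0.04, 95% interval -0.37 to 0.30, adjusted p 0.86). With quantile normalization the +/fl difference passed the threshold at -0.59 (adjusted p 0.00531).

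Both subunits of the enzyme that starts glutathione synthesis rose. Gclc encodes the catalytic subunit of glutamate-cysteine ligase, the enzyme that sets the pace of glutathione synthesis, and its probe lies at chr9:77835053-77835112 (mm7). It read 0.88, 0.80 and 0.54 in resting +/fl cells and 1.89, 2.19 and 1.68 after LPS, a difference of 1.18 (SE 0.18, adjusted p 0.000256). It read 1.43, 0.92 and 0.86 in resting fl/fl cells and 1.90, 1.85 and 1.90 after LPS, a difference of 0.81 (SE 0.18, adjusted p 0.00309). Resting and LPS arrays did not overlap in either genotype, and resting fl/fl 1 came closest to the LPS arrays.

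Gclm, the modifier subunit of the same ligase and the owner of an ARE core shown above, was dimmer. Resting +/fl cells read -3.39, -5.04 and -3.38 and LPS +/fl cells -1.74, -2.05 and -2.0. With both alleles floxed it read -3.97, -4.03 and -4.22 at rest and -2.19, -1.87 and -2.28 after LPS. All LPS arrays lay above all resting arrays, and resting +/fl 2 was the lowest and the one array not above background. The difference was 2.01 (SE 0.38, adjusted p 0.00109) in +/fl and 1.96 (SE 0.38, adjusted p 0.00134) in fl/fl cells. The size of the Gclm rise depended on the setting. With the repaired normexp it was 0.69 (adjusted p 0.000215) in +/fl and 0.56 (adjusted p 0.00112) in fl/fl cells. In +/fl cells it was 3.11 without resting +/fl 1 and 3. That fit rests on resting +/fl 2 alone, the array not above background.

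Slc7a11 encodes the cystine carrier of the xCT exchanger, which imports the amino acid that limits glutathione synthesis. Its brightest probe (chr3:50490342-50490401, mm7, minus strand) was above background on none of the 6 resting arrays, where it read -7.59 to -7.02. After LPS it read -5.39, -6.19 and -4.19 in +/fl cells, above background on 2 arrays, and -4.74, -4.92 and -3.96 in fl/fl cells, above background on all 3. The 6 LPS arrays were all higher than the resting ones and were spread widely. In fl/fl cells the rise was at least 1.59-fold, a bound set by the lowest signal that counts as above background. The adjusted p of 0.000427 there belongs to the fitted difference, which uses resting values below background. Slc7a11 passed the filter through the LPS arrays alone, so the direction was fixed and its p-values do not support it. The group means of +/fl cells were -7.33 ± 0.24 at rest and -5.26 ± 1.01 after LPS (SD, n = 3; adjusted p 0.00247), and no fold is given because the bound is under 1. The 3 other Slc7a11 probes did not pass the filter.

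Among the thioredoxin genes, Txnrd1 gave the smallest p-values of the 10 members for LPS. It encodes cytosolic thioredoxin reductase, which uses NADPH to keep thioredoxin reduced, and its probe lies at chr10:82438991-82439050 (mm7). Resting +/fl cells read 2.51, 2.61 and 2.65 and LPS +/fl cells 5.0, 5.11 and 4.75. Resting fl/fl cells read 2.54, 2.09 and 2.03 and those stimulated with LPS 4.24, 4.30 and 4.14. The 4 groups formed a clear low pair and a clear high pair, with the LPS fl/fl arrays all under the LPS +/fl arrays. LPS raised Txnrd1 5.15-fold in +/fl (2.37, SE 0.15, adjusted p 6.64e-07) and 4.03-fold in fl/fl cells (2.01, SE 0.15, adjusted p 2.01e-06).

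Prdx1, a peroxiredoxin that reduces hydrogen peroxide at the expense of thioredoxin, rose by 1.46 in each genotype. Resting +/fl cells read 4.50, 4.15 and 3.81 and LPS +/fl cells 5.52, 5.80 and 5.52. The fl/fl cells read 3.68, 3.70 and 3.77 at rest and 5.26, 5.03 and 5.25 after LPS. No resting array reached an LPS array, and the widest group was resting +/fl. The standard error was 0.17 (adjusted p 3.62e-05 in +/fl and 3.99e-05 in fl/fl cells), and the difference between the responses was -0.00 (95% interval -0.53 to 0.52).

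Srxn1, the sulfiredoxin that restores over-oxidised peroxiredoxins, was called in fl/fl cells and not in +/fl cells. At its probe (chr2:151852040-151852099, mm7) resting +/fl cells read -2.35, -3.78 and -3.55 and LPS +/fl cells -2.73, -2.5 and -2.32. For fl/fl the values were -2.90, -3.58 and -3.43 at rest and -2.12, -1.15 and -2.37 after LPS. Resting +/fl 1 sat among the LPS arrays, and LPS fl/fl 2, the array with the most spots above background, was the highest. The difference was 0.71 (SE 0.41, adjusted p 0.163) in +/fl cells and 1.43 (SE 0.41, adjusted p 0.0129) in fl/fl cells. Without LPS fl/fl 2 the fl/fl difference was 1.06 (adjusted p 0.0444), and with the repaired normexp it was 0.59 (adjusted p 0.0311). Without resting +/fl 1 the +/fl difference was 1.15 and passed (adjusted p 0.0198), and the difference between the genotypes' responses did not pass (0.71, 95% interval -0.57 to 2.0, adjusted p 0.502). The 2 other Srxn1 probes did not pass the filter.

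Nqo1, the quinone reductase often used as a readout of NRF2, rose from near or below background. Its probe (chr8:105988683-105988742, mm7, minus strand) read -4.02, -5.19 and -4.50 in resting +/fl cells, above background on 2 arrays, and -2.15, -1.94 and -1.64 after LPS. Resting fl/fl cells read -4.76, -5.15 and -5.33, above background on none, and LPS fl/fl cells -3.51, -3.0 and -3.0. The groups ran in the order resting, LPS fl/fl, LPS +/fl with no overlap between those levels. The difference was 2.66 (SE 0.29, adjusted p 2.76e-05) in +/fl cells, and in fl/fl cells the rise was at least 3.65-fold. The adjusted p of 0.000295 in fl/fl cells belongs to the fitted difference, which uses resting values below background. Nqo1 passed the filter through the LPS arrays, so its direction was set by the filter.

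The rise of the dimmest genes depended on how background was removed. With the repaired normexp the Slc7a11 differences were -0.10 and -0.11 in +/fl and fl/fl cells and that of Nqo1 in fl/fl cells was 0.09. None of these passed (adjusted p 0.612, 0.596 and 0.512). The Nqo1 difference in +/fl cells passed but was 0.94 (adjusted p 1.18e-05) in place of 2.66. Without resting +/fl 1 and 3 it was 3.28. That fit rests on resting +/fl 2 alone, the lowest of the resting +/fl arrays at -5.19.

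Hmox1 went against the other targets. It encodes haem oxygenase 1, which splits haem into biliverdin, iron and carbon monoxide, is repressed by BACH1, and is plentiful in the splenic macrophages that clear red cells. At its probe (chr8:73642229-73642288, mm7) resting +/fl cells read 2.93, 1.48 and 2.0 and LPS +/fl cells 0.08, 0.39 and -0.22. The fl/fl values were 0.93, 1.54 and 1.20 at rest and -0.45, -0.06 and -0.29 after LPS. All resting arrays lay above all LPS arrays, with resting +/fl 1 highest. The difference was -2.05 (SE 0.33, adjusted p 0.000401) in +/fl and -1.49 (SE 0.33, adjusted p 0.00324) in fl/fl cells. Without resting +/fl 1 and 3 the Hmox1 difference in +/fl cells was -1.39, with only resting +/fl 2 left at rest.

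Macrophage markers, like Hmox1, were lower on every LPS array than on every resting array. The summed signal of 14 macrophage and monocyte markers, relative to the 75th percentile, was 101, 21.4 and 52 on resting +/fl arrays 1 to 3 and 16.3 to 20.8 on resting fl/fl arrays, with 14 of 14 above background on each. After LPS it was 3.22 to 11.1 in +/fl and 4.36 to 12.2 in fl/fl cells, with 7 to 8 and 8 to 13 of 14 above background. Over the resting +/fl arrays Hmox1 and this sum had the same order. In the other groups they did not. Resting fl/fl arrays 1 to 3 read 0.93, 1.54 and 1.20 for Hmox1 and 20.8, 16.3 and 16.7 for the sum. Erythroid markers summed to 7.95 to 98.6 at rest in fl/fl cells, 34.4 to 75.9 at rest in +/fl cells, 3.54 to 9.75 after LPS in fl/fl cells and 4.95 to 31.5 after LPS in +/fl cells. Neutrophil markers, 7 in all with 6 to 7 above background, summed to 53.8, 4.22 and 53.1 on resting +/fl arrays 1 to 3 and 1.96 to 5.4 on resting fl/fl arrays. After LPS they summed to 9 to 84.4 in +/fl and 16.4 to 71.5 in fl/fl cells, so in fl/fl cells they were higher on every LPS array. Natural killer cell markers fell from 11.8 to 36.4 at rest to 1.02 to 4.42 after LPS. The part of these markers in the LPS responses of Hmox1 and the other members was not tested. In these sorted but bulk samples, fewer cells of a type and less RNA per cell cannot be told apart.

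**Figure D3:**
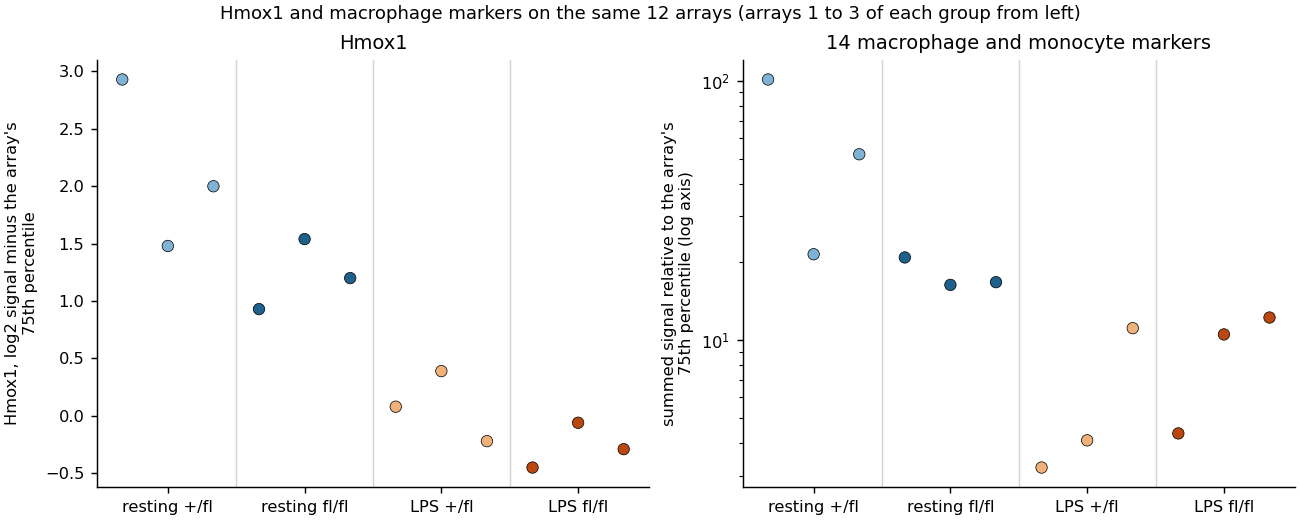
Hmox1 (left, log2 signal minus the 75th percentile of the array) and the summed signal of 14 macrophage and monocyte markers (right, log axis) on the same 12 arrays, coloured by group. Resting +/fl 1 is the highest array in both panels, and every LPS array is below every resting array in both.

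Slides held arrays of several groups, so LPS and resting arrays could be set against each other within a slide. For the 8 members called in +/fl cells, 16 of 16 within-slide differences had the sign of the pooled difference, and for the 9 called in fl/fl cells 18 of 18 did. This outcome was fixed, because the LPS and resting arrays of these members did not overlap, so it is no separate check on slides. For Txnrd1 the within-slide differences were 2.32 and 2.49 in +/fl and 2.05 and 2.24 in fl/fl cells.

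**Figure D4:**
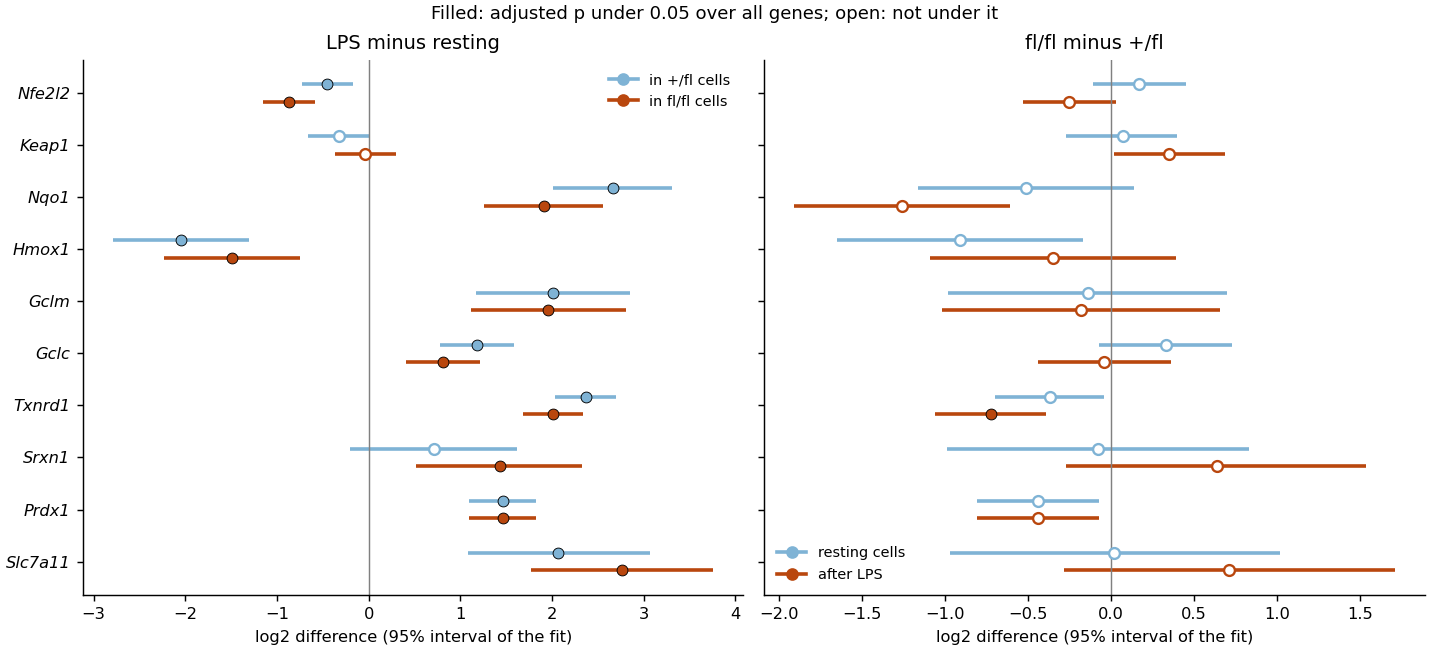
Differences of the 10 genes on the log2 scale with 95% intervals of the limma fit, LPS minus resting on the left and fl/fl minus +/fl on the right, filled where the adjusted p is below 0.05. The left panel holds 8 filled points for +/fl and 9 for fl/fl cells, and the right panel holds 1, Txnrd1 after LPS at -0.72.

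In resting cells the genotypes were not told apart at any member: 0 of 10 were called, where 8.81% of all genes were (4.63% higher and 4.18% lower in fl/fl cells). The 10 include Slc7a11, above background on 0 resting arrays, and Nqo1, on 2. For Slc7a11 background was thus compared with background. Of the members, 3 had an unadjusted p below 0.05. Those were Hmox1 (-0.91, 95% interval -1.65 to -0.17, adjusted p 0.11), Prdx1 (-0.44, interval -0.81 to -0.07, adjusted p 0.125) and Txnrd1 (-0.37, interval -0.70 to -0.04, adjusted p 0.14), each lower in fl/fl cells. Prdx1 was the member whose 3 fl/fl arrays did not overlap the 3 +/fl arrays, as 31.2% of all genes did not. The Hmox1 difference was -0.25 without resting +/fl 1 and 3, the arrays with the most macrophage signal, which leaves resting +/fl 2 alone. It was -1.24 (adjusted p 0.039) without resting +/fl 2, when Gclm passed as well (-0.69, adjusted p 0.0324). For Nfe2l2 the interval was -0.11 to 0.45 and for Keap1 -0.27 to 0.40. Resting +/fl 1 and 3 were also the resting arrays with the most neutrophil signal, and 6 platelet markers summed to 12.3 to 14.1 in resting fl/fl and 3.92 to 5.93 in resting +/fl cells. Their part in the resting differences was not tested.

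After LPS, Txnrd1 was the member called between the genotypes. Its arrays were given above: 4.14 to 4.30 in fl/fl and 4.75 to 5.11 in +/fl cells, a difference of -0.72 (SE 0.15, 1.65-fold, adjusted p 0.0464). This makes 1 of 10 members, lower in fl/fl cells, where 1.69% of all genes were called, 0.887% higher and 0.805% lower. The call lay close to the threshold and ended in 11 of the 12 fits that left out 1 array (-0.83 to -0.64 over the 12, adjusted p up to 0.153), with slide as a block (-0.64, adjusted p 0.208) and with quantile normalization (-0.54, adjusted p 0.117). The slide that held both groups gave -0.85, from 1 array of each.

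Nqo1 showed a wider gap that did not pass. Its LPS arrays read -3.51 to -3.0 in fl/fl and -2.15 to -1.64 in +/fl cells, a difference of -1.26 (SE 0.29, 95% interval -1.91 to -0.61, adjusted p 0.0641). It passed with the repaired normexp correction (-0.75, adjusted p 0.00759). Among the fits that left out 1 array, it passed without resting +/fl 1 (adjusted p 0.0483) and without resting +/fl 2 (adjusted p 0.0386) alone. In the others the adjusted p was up to 0.173. It did not pass with slide as a block (-1.19, adjusted p 0.244), with no filter (-1.26, adjusted p 0.153) or with normexp (-1.25, adjusted p 0.839). Prdx1 differed by -0.44 (interval -0.81 to -0.07, adjusted p 0.172), Nfe2l2 by -0.25 (interval -0.53 to 0.03, adjusted p 0.272) and Keap1 by 0.35 (interval 0.02 to 0.69, adjusted p 0.212). For these 5 genes the LPS arrays of the genotypes did not overlap, as for 33.4% of all genes. The fl/fl arrays were lower for Txnrd1, Nqo1, Prdx1 and Nfe2l2 and higher for Keap1. Gclc (-0.04, interval -0.44 to 0.36), Gclm (-0.18, interval -1.02 to 0.66), Hmox1 (-0.35, interval -1.09 to 0.39), Srxn1 (0.64, interval -0.27 to 1.54) and Slc7a11 (0.71, interval -0.28 to 1.71) overlapped.

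Whether LPS acted differently in the 2 genotypes was tested as an interaction, and 0 of 10 members were called, where 0.175% of all genes were (0.105% positive and 0.07% negative). Nfe2l2 had the 1 unadjusted p below 0.05, with a response lower by 0.42 in fl/fl cells (-0.42, 95% interval -0.81 to -0.02, adjusted p 0.225). The interaction was -0.36 for Txnrd1 (interval -0.82 to 0.11) and 0.56 for Hmox1 (interval -0.49 to 1.60). For Nqo1 and Slc7a11 none is given, because neither was above background on any resting fl/fl array and their fl/fl responses are bounds.

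Around the members, 126 genes of 9 lists were followed, of which 115 passed the filter. After LPS 50 rose and 35 fell in +/fl cells (43.5% and 30.4%), and 53 rose and 28 fell in fl/fl cells (46.1% and 24.3%), with medians of 0.26 and 0.21. Over all genes the shares were 30.4% higher and 27.4% lower in +/fl cells and 29.9% and 25.7% in fl/fl cells, and each list below is set against those. These counts include genes that passed the filter through one condition and support nothing about the pathway by themselves. Differences below give +/fl first and fl/fl second, as log2 differences. Where the value of a single genotype is given, the gene can have been called in the other as well.

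Among 8 relatives and partners of NRF2, 2 rose and 2 fell in +/fl cells (25% each) and 4 rose and 2 fell in fl/fl cells (50% and 25%). Mafg, a small MAF partner, rose by 1.82 (SE 0.09, adjusted p 1.71e-07) and 1.93 (SE 0.09, adjusted p 1.39e-07), and Nfe2l1, the related factor NRF1, by 1.14 and 0.59. The rivals fell: Bach1, the repressor that competes for the ARE, by 1.58 in each (adjusted p 7.97e-05 and 8.67e-05), and Bach2, its B cell relative, by 1.18 and 1.66. Of 8 genes of the KEAP1 ligase and NRF2 turnover, 4 rose and 1 fell in +/fl cells (50% and 12.5%) and 2 rose in fl/fl cells (25%). Prkci, an atypical protein kinase C, rose by 1.69 and 1.38. Gsk3b, a kinase that marks NRF2 for degradation, fell by 0.55 in +/fl cells (adjusted p 0.0356). In fl/fl cells its difference of -0.46 did not pass (adjusted p 0.0706).

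Glutathione genes split. Of 19 tested, 8 rose and 10 fell in +/fl cells and 8 rose and 9 fell in fl/fl cells, with medians of -0.83 and -0.69. The share that fell, 52.6% and 47.4%, was above that of all genes, and so was the share that rose, 42.1% in each. Gss, glutathione synthetase, which completes the tripeptide, rose by 1.56 and 1.84. Chac1, which breaks glutathione down, rose by 5.90 in +/fl cells (SE 0.47, adjusted p 3.27e-06, above background on 2 of 3 resting arrays). Gsto1, a glutathione transferase, rose by 3.32 in fl/fl cells. The transferases Gstm1 (-2.49 and -2.63) and Mgst1 (-4.03 in +/fl cells) and the peroxidase Gpx1 (-1.57 in fl/fl cells) fell.

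A list of 12 genes for cystine and thiol supply also holds neutral amino acid carriers and genes of the amino acid stress response, which do not supply cystine. Of the 12, 9 were called higher in each genotype (75%) and 0 lower, and Cbs, Slc1a5 and Ddit3 were not called. The medians were 2.05 and 1.91. Trib3, a target of the amino acid stress factor ATF4, rose by 4.74 and 3.63. Mat2a, which makes S-adenosylmethionine, rose by 2.25 in +/fl cells and was called higher in fl/fl cells as well. Slc1a4, a neutral amino acid carrier, was above background on none of the resting fl/fl arrays. It rose at least 16.8-fold there (adjusted p of the fitted difference 5.33e-07). It was above background on none of the resting +/fl arrays either, so it could be called in the higher direction alone. Of 12 genes that supply NADPH, 7 rose in +/fl cells (58.3%) and 8 rose and 1 fell in fl/fl cells (66.7% and 8.33%). They included Tkt, transketolase (1.47 and 1.72), Nadk, NAD kinase (1.46 and 1.22), and Mthfd1, a folate enzyme (2.35 and 2.84).

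In the thioredoxin and peroxiredoxin list 10 of 17 rose and 4 fell in +/fl cells (58.8% and 23.5%), and 11 rose and 4 fell in fl/fl cells (64.7% and 23.5%). Txnrd3, a reductase related to Txnrd1, rose by 3.48 and 3.15, and Txn2, mitochondrial thioredoxin, by 1.57 and 1.33. Sesn1, a sestrin, fell by 2.38 and 2.17, and Txnip, which binds and blocks thioredoxin, by 1.77 in +/fl cells. Of 9 genes that make or remove superoxide and peroxide, 1 rose and 4 fell in +/fl cells (11.1% and 44.4%) and 3 rose and 3 fell in fl/fl cells (33.3% each). Sod2, mitochondrial superoxide dismutase, rose by 1.46 and 0.91, while Cat, catalase, fell by 2.12 and 2.71.

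Of 12 genes of haem and iron handling, 4 rose and 6 fell in +/fl cells (33.3% and 50%) and 3 rose and 4 fell in fl/fl cells (25% and 33.3%). Blvrb, a biliverdin reductase, fell by 3.37 and 3.25. Slc40a1, the iron exporter ferroportin, fell by 6.90 and 4.92 and was above background on 2 of 3 LPS +/fl arrays. Tfrc, the transferrin receptor, rose by 1.65 and 1.54. The macrophage markers given beside Hmox1 also fell here, and their part was not tested. Of 18 detoxification genes, 5 rose and 8 fell in +/fl cells (27.8% and 44.4%) and 5 rose and 5 fell in fl/fl cells (27.8% each). Abcc1, an exporter of glutathione conjugates, rose by 1.84 and 1.48, whereas Osgin1 fell by 3.34 and 2.54 and Nqo2, the relative of Nqo1, by 2.24 and 1.91.

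**Figure D5:**
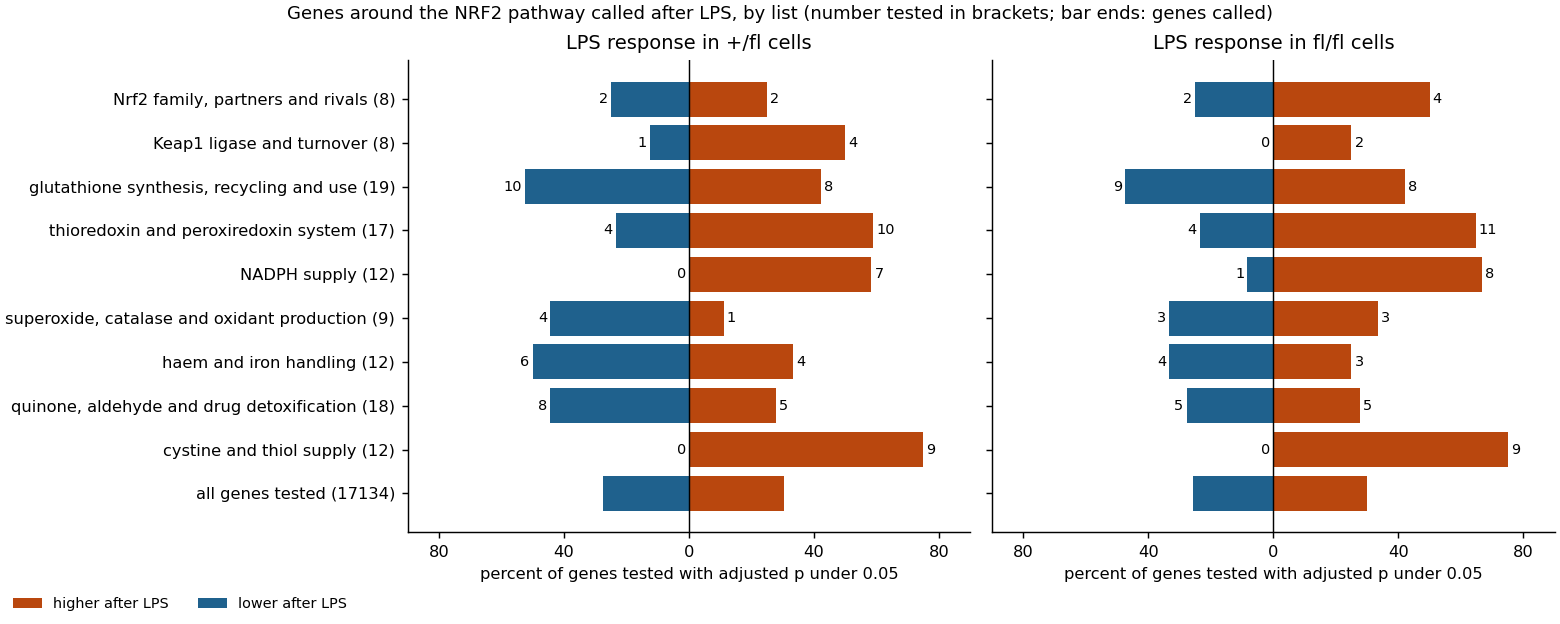
Percent of the tested genes of 9 lists, and of all 17134 genes, that were called higher (right) or lower (left) after LPS in +/fl and fl/fl cells, with the number called at the end of each bar. Cystine and thiol supply has 9 genes called higher and 0 lower in both panels, and glutathione has 8 higher in both with 10 and 9 lower.

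Between the genotypes at rest 13 of the 115 genes were called, 2 higher and 11 lower in fl/fl cells, which is 11.3% where 8.81% of all genes were called. Bach2 (0.84, SE 0.21, adjusted p 0.0365) and Nfe2l1 (0.44, SE 0.11, adjusted p 0.0364) were higher. Abcc4, an organic anion exporter (-1.10, SE 0.13, adjusted p 0.00375), Prdx4, the peroxiredoxin of the endoplasmic reticulum (-0.74, SE 0.11, adjusted p 0.00715), and Ftl1, ferritin light chain (-0.74, SE 0.16, adjusted p 0.0242), were lower. The count was 0 with normexp and 20 with the repaired normexp (3 higher and 17 lower). Leaving out 1 array gave 5 to 16, and 5 to 8 without any one of resting fl/fl 1, 2 or 3, resting +/fl 1 or 3, LPS fl/fl 1 or 3, or LPS +/fl 1. After LPS 4 were called (3.48%, where 1.69% of all genes were): Pir was higher (1.97, adjusted p 0.0419) and Sod2 (-0.58, adjusted p 0.0368), Ncf4 (-0.65, adjusted p 0.0419) and Trib3 (-0.86, adjusted p 0.0466) were lower. That count was 0 with slide as a block, with normexp and with quantile normalization, and 8 with the repaired normexp (1 higher and 7 lower). Leaving out 1 array gave 0 to 4, and 0 to 2 for every array but LPS fl/fl 2, resting +/fl 2 and resting fl/fl 1. In the interaction, 0 of 115 were called.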

How the data were processed

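Scanner output of 12 Agilent 1-colour mouse arrays (design 014868, positions on mm7) was read per array. The value is an intensity, the background-subtracted Cy3 signal, per the file headers. The headers name Feature Extraction 9.5.3.1 and the submitters' processing notes 9.1. The deposited value table, also an intensity on a linear scale (every column median 30.9), was an alternative. Its values follow the scanner values on each array (Spearman correlation 0.9999 to 1.0000), so higher means more signal. All 12 of its columns hold the same set of values once sorted, as quantile normalization leaves them, and no label or header states the authors' procedure.

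Outlier spots were left out (87 probes), replicate spots averaged, log2 taken and each array's 75th percentile subtracted. The 25678 probes that the scanner software called well above background on 3 or more of the 12 arrays were kept, and the brightest was taken for each gene. A limma 3.58.1 model of the 4 group means used all arrays (R 4.3.3; files read by the data.table package, release 1.17.8), with contrasts for each comparison and Benjamini-Hochberg adjustment at 0.05 over 17134 genes. If no array of a group exceeded background, the fold is a minimum. With 3 arrays per group, array number limits precision. The script was checked on simulated data. Each probe of a member was also fitted on its own.

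Members and lists were chosen with earlier results of these data known. Named genes were all members and, per list and comparison, up to 2 called in each direction with the smallest p, of which the text gives most. Alternatives were normexp (offset 50), quantile normalization, deposited values, no filter, the mean over probes, blocks for slide or for replicate number, fits of the compared arrays alone, and arrays left out. Normexp repaired for spots of high local background was added after the data were seen. Replicate numbers were not taken to pair samples: deviations of same-numbered arrays correlated from -0.14 to 0.13.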

Additional observations from a re-analysis of the deposited data

How the results depend on the processing

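The members' LPS calls changed little when 1 array was left out: 8 and 9 were called, and these fits gave 8 to 9 in +/fl and 9 to 9 in fl/fl cells. These counts include Slc7a11 and Nqo1, whose direction was set by the filter. With normexp 3 and 4 were called, and Slc7a11 read -0.02 and -0.89, Nqo1 in fl/fl cells -0.61 and Gclm in fl/fl cells -0.08. With the repaired normexp Slc7a11 read -0.10 and -0.11 and Nqo1 in fl/fl cells 0.09, and none of these was called. The repair changes only the background of spots with high local background, 7 on resting fl/fl 1, 1 on resting fl/fl 3, 20 on resting +/fl 1 and 16 on LPS +/fl 2. For the reversals that stood after it the cause was not tested.

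The LPS genotype count of 1 (Txnrd1) was 0 with normexp, quantile normalization, the deposited values, no filter, the mean over probes, slide as a block, only the arrays compared, and without the 2 arrays sharing a sample number. It was 2 with the repaired normexp and 0 to 1 leaving out 1 array. With the replicate block it was also 0 (Txnrd1 -0.72, adjusted p 0.0905), although the numbers do not pair the samples, and 42 of all genes were called where 290 were without it. At rest 0 to 2 were called leaving out 1 array. The interaction count was 0, 1 with the repaired normexp (Nqo1, above background on none of the resting fl/fl arrays), and 0 to 0 leaving out 1 array.

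Counts over all genes varied. The LPS genotype count of 290 (152 higher, 138 lower) was 136 with quantile normalization (55 and 81), 27 with no filter, 5 with slide as a block and 16 to 292 leaving out 1 array. The resting count of 1510 was 0 with normexp, 421 with no filter, 725 with the replicate block and 504 to 1664 leaving out 1 array. The interaction count of 30 ranged from 8 to 140 leaving out 1 array and was 100 with the repaired normexp. Normexp gave 1476 and 2382 in the LPS responses, where 9890 and 9524 were called. It moved the median of all genes to -0.18 and -0.44 there, the repaired normexp to -0.23 in both, and no filter to -0.22 and 0.17. Signal over background limits Slc7a11, Nqo1 and Gclm.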

Other observations

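Over the 12 arrays, the genes of all 17134 with the pattern most like Nfe2l2 were Mtmr4, a lipid phosphatase (root mean square difference of the centred log2 values 0.074), Top2b, a DNA topoisomerase (0.0997), and Shkbp1 (0.103). The SD of Nfe2l2 itself was 0.38. For Nqo1 (SD 1.33) they were Dgat2, which completes triglyceride synthesis (0.29), Mcrip2 (0.345) and Ung, uracil-DNA glycosylase (0.358). For Slc7a11 (SD 1.39) they were the cDNA AK033886 (0.319), Slc35d3 (0.357) and the cDNA AK076249 (0.453). These are descriptions of likeness over arrays that share their LPS treatment, with no test. Part of the Slc7a11 and Nqo1 patterns is background signal. Slc7a11 was above background on 0 resting and 5 LPS arrays, and Nqo1 on 2 and 6.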
